A study of Rattus norvegicus with 21 samples.

Results

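The comparison described here is that of PC12 cells given the water extract of Jakyakgamcho-tang (JGT) at its high dose of 100 µg/mL with PC12 cells given vehicle. It was chosen by the titles of the samples, and it takes 6 of the 21 libraries of the series, 3 with the water extract and 3 with vehicle. The unit of description is the gene, by the Ensembl rat ID of the deposited tables, with a floor of 1 CPM (counts per 1e+06 counts of a library) on average over the 6 libraries. Of 32883 IDs, 12193 reached that floor, and 14540 had a count of 0 in all 6 libraries. The IDs nearest to the floor lay at 1.0008 CPM inside it and 0.9985 CPM outside it, and 1 CPM is about 24 counts at these depths. The other groups used below are the water extract at a low dose of 4 µg/mL and a medium dose of 20 µg/mL and the ethanol extract of JGT at 100 µg/mL, with 3 libraries each. In the labels the vehicle libraries carry the treatment vehicle and, for their dose, the entry untreated sample. All groups share 1 cell line and carry no labelled genetic change. The labels give no treatment time and do not say whether replicates came from separate cultures, so p-values rest on library-to-library spread that may be technical.

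PC12 is a line from a rat adrenal pheochromocytoma, a tumour of the chromaffin cells that make and store catecholamines. It stops dividing and grows neurites when given nerve growth factor, and the labels list it as a neuronal cell. JGT is a decoction of peony root and licorice root used in East Asian medicine, and paeoniflorin from peony and glycyrrhizin and liquiritin from licorice are among its known constituents. What a water extract does to the transcriptome is read here as the level of each gene's messenger RNA. By its title, the series looked for transcription factors that drive the expression response to JGT. The deposited tables list IDs without names, and the RefSeq table of 47357 rat genes (GRCr8) paired 0 of the IDs with a symbol. Roles of single genes, gene lists, the markers of the cell line and of other cells, and promoter sequences were therefore not analysed here. In bulk RNA, fewer cells of a type and less RNA per cell cannot be told apart.

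Sequencing depth, as the sum of expected counts, was 19918513 to 23781470 with vehicle and 18398186 to 26845043 at the high dose. Those at the low and medium doses held 23462992 to 28420922. No pair of libraries within a group agreed within sampling noise, with chi-square per degree of freedom of 3.14 to 11.6 over 12 pairs.

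Differences between the high dose and vehicle went both ways and were small for most of the genes that passed. By edgeR's quasi-likelihood test, 646 genes, or 5.3% of those tested, passed an adjusted p of 0.05. Of these, 283 (2.32%) rose and 363 (2.98%) fell, while 2518 genes had an unadjusted p under 0.05. The genes that rose had a median log2 fold change of 0.33, with quartiles of 0.24 and 0.47. The genes that fell had a median of -0.24, with quartiles of -0.32 and -0.20. Over all genes tested the median log2 fold change was 0.0012 and the median size of the change, in either direction, was 0.084. Changes upwards reached further: 145 genes rose and 84 fell by at least 1.25-fold, 47 rose and 8 fell by at least 1.5-fold, and 4 rose and 0 fell by at least 2-fold. The called log2 changes ran from -0.89 to 1.31. The summed level of the genes that rose was 22429 ± 521 CPM (SD, n = 3) with vehicle and 27785 ± 352 CPM at the high dose, and that of the genes that fell was 70773 ± 1717 and 60067 ± 1045 CPM. These sums describe genes chosen by the same comparison.

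**Figure D1:**
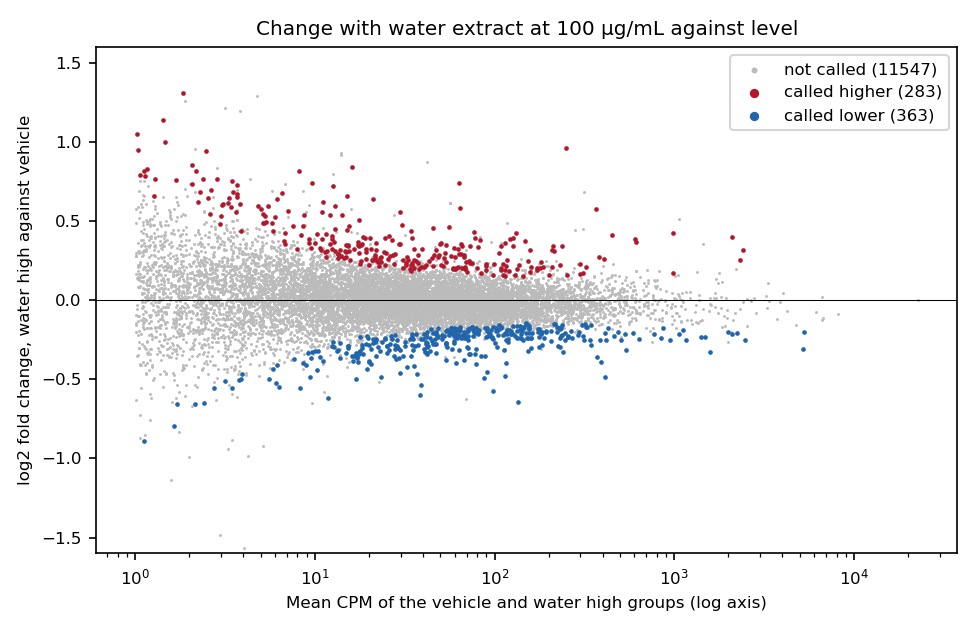
Log2 fold change of high-dose water extract over vehicle (y axis) against the mean level over the 6 libraries in CPM (x axis, log scale), with 1 point per gene tested. Genes that passed edgeR's test are coloured by direction, 283 higher and 363 lower, and 13 genes that did not pass lie outside the plotted range of ±1.6.

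Groups did not overlap for 281 of the genes that rose and 359 of the genes that fell. Over all genes tested, every high-dose library lay above every vehicle library for 1468 genes (12%) and below for 1535 genes (12.6%), so absence of overlap is common among genes that were not called. The number of calls rested on single libraries: it was 302, 407 and 280 without vehicle replicates 1, 2 and 3, and 507, 252 and 688 without high-dose replicates 1, 2 and 3. A fit of all 21 libraries called 9 genes, with 789 at an unadjusted p under 0.05. A fit of 18, without ethanol medium-dose replicates 2 and 3 and ethanol low-dose replicate 1, called 624, of which 567 were among the 646. The log2 fold change of each of the 646 genes kept its sign in each of these fits.

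Long and abundant transcripts made up more of the genes that fell. The median length was 3558 bases for genes that fell, 2145 bases for genes that rose and 2220 bases for all genes tested. Among genes under 1000 bases, 1.54% rose and 0.618% fell. From 1000 to 2000 bases these shares were 2.7% and 1.41%, and from 2000 to 4000 bases 2.39% and 2.93%. At 4000 bases and longer, 39 of 2053 genes (1.9%) rose and 156 (7.6%) fell, and the median log2 fold change of all genes of that length was -0.043. The share that fell thus grew with each step in length, and the share that rose did not. When any 1 of the 6 libraries was left out, the median length of the genes that fell was 3257 to 4310 bases and that of the genes that rose 1939 to 2156 bases. Among genes under 5 CPM, 2.07% rose and 0.584% fell, while at 100 CPM and above 2.43% rose and 6% fell.

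**Figure D2:**
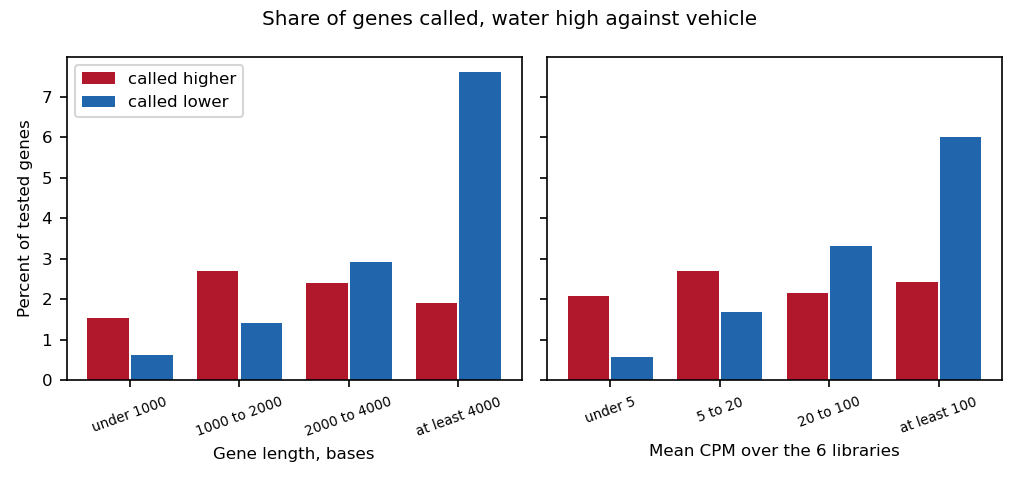
Percent of genes tested (y axis, from 0) that were called higher and lower at the high dose of water extract. The x axes are gene length in bases (left) and mean CPM over the 6 libraries (right). The lower calls go from 0.618% of genes under 1000 bases to 7.6% of genes of at least 4000 bases, and the higher calls stay between 1.54% and 2.7%.

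Libraries of 1 group also differed along gene length. Across genes, Spearman's rho between length and a library's deviation from the median library was 0.268, 0.024 and 0.0459 in vehicle replicates 1 to 3. It was 0.0427, -0.175 and -0.135 in high-dose replicates 1 to 3, so vehicle replicate 1 stood above the others and the first high-dose replicate lay among the vehicle values. These rho values are descriptions across genes, which are not independent. The estimated fragment length was 226 ± 6.37 bases (SD, n = 3) with vehicle and 222 ± 5.35 bases at the high dose. With the length trend of each library removed, an alternative chosen after seeing the data, 594 genes were called, 314 higher and 280 lower, of which 523 were among the 646. Median length was then 2531 bases among the genes that rose and 2704 bases among those that fell. The balance of directions and the median lengths of both sets of genes therefore moved with this correction. It takes out length trends by design, so the nearer median lengths are no separate finding.

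Among genes with at least 20 CPM on average, 163 rose and 301 fell of 7298 tested, and the 6 with the largest change each way are described first because counting error is small there. This set was chosen after the values were seen, among called genes whose groups do not overlap, so absence of overlap is no finding in it. ENSRNOG00000008478.5, with a length of 2602 bases, stood at 170.1, 188 and 151 CPM with vehicle and 328, 330.0 and 333 CPM at the high dose. The high-dose libraries lay close together and above all vehicle libraries. Its log2 fold change was 0.96 ± 0.0649 (SE; edgeR adjusted p = 1.25e-07). ENSRNOG00000014387.4 stood at 48.1, 48.3 and 46.9 CPM with vehicle and 77, 78.4 and 84.2 CPM at the high dose. For this gene the log2 fold change was 0.74 ± 0.0654 (SE; edgeR adjusted p = 2.33e-06). ENSRNOG00000032626.4 was the most abundant of the 6 that rose, at 309.5, 299 and 273 CPM with vehicle and 468, 435 and 414 CPM at the high dose. The highest of its high-dose values was in replicate 1, and the log2 fold change was 0.58 ± 0.0587 (SE; edgeR adjusted p = 8.9e-06). Per length, this gene was at 351 ± 29.3 TPM, the length-corrected scale (SD, n = 3), with vehicle and 527 ± 48.3 TPM at the high dose.

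ENSRNOG00000042785.3 had 54, 51.3 and 48.6 CPM with vehicle and 74, 78 and 79.2 CPM at the high dose, and its log2 fold change was 0.58 ± 0.0628 (SE; edgeR adjusted p = 1.64e-05). ENSRNOG00000020309.5 had 16.8, 16.8 and 15.8 CPM with vehicle and 25.3, 25.2 and 26.5 CPM at the high dose, and its log2 fold change was 0.64 ± 0.0668 (SE; edgeR adjusted p = 1.16e-05). Both rose, and both passed when any 1 of the 6 libraries was left out. ENSRNOG00000053201.1 was the weakest of the 6, with 27.2, 22.5 and 22.2 CPM with vehicle and 42, 35.2 and 29.5 CPM at the high dose and a log2 fold change of 0.56 ± 0.125 (SE; edgeR adjusted p = 0.0261). That call ended without vehicle replicate 2 (0.0845), vehicle replicate 3 (0.0976) and high-dose replicate 2 (0.0852), where the value in brackets is edgeR's adjusted p in that fit, here and below. The other 5 genes passed in each leave-one-out fit. With all 21 libraries ENSRNOG00000008478.5 (0.0162), ENSRNOG00000014387.4 (0.00466) and ENSRNOG00000042785.3 (0.00101) passed. ENSRNOG00000032626.4 (0.0664), ENSRNOG00000020309.5 (0.102) and ENSRNOG00000053201.1 (0.363) did not.

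The abundant genes that fell changed by less. ENSRNOG00000016311.7, of 4834 bases, stood at 177, 157 and 160.4 CPM with vehicle and 113, 96.6 and 108 CPM at the high dose. Every high-dose library was below every vehicle library, as the choice of genes required, and the log2 fold change was -0.64 ± 0.0594 (SE; edgeR adjusted p = 3.17e-06). ENSRNOG00000004221.5 had 112, 116 and 125 CPM with vehicle and 77, 79.4 and 81 CPM at the high dose, and its log2 fold change was -0.57 ± 0.0715 (SE; edgeR adjusted p = 0.000175). ENSRNOG00000007345.7, the longest of the 6 at 6934 bases, had 48.3, 42.5 and 48.7 CPM with vehicle and 33.3, 27.9 and 31.1 CPM at the high dose. Its log2 fold change was -0.602 ± 0.0724 (SE; edgeR adjusted p = 7.22e-05). ENSRNOG00000005206.7 fell from 46.1 ± 2.47 to 31.9 ± 2.08 CPM (SD, n = 3), ENSRNOG00000007152.2 from 102 ± 2.74 to 72.4 ± 2.77 CPM and ENSRNOG00000003841.5 from 27.4 ± 1.52 to 19.6 ± 1.7 CPM. Their log2 fold changes were -0.53, -0.49 and -0.49, with edgeR adjusted p of 0.000146, 0.00017 and 0.000982. Each of the 6 passed when any 1 library was left out. In the fit of 21 libraries ENSRNOG00000016311.7 (0.0313) and ENSRNOG00000007152.2 (0.0453) passed. ENSRNOG00000007345.7 (0.129), ENSRNOG00000004221.5 (0.429), ENSRNOG00000003841.5 (0.474) and ENSRNOG00000005206.7 (0.844) did not.

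**Figure D3:**
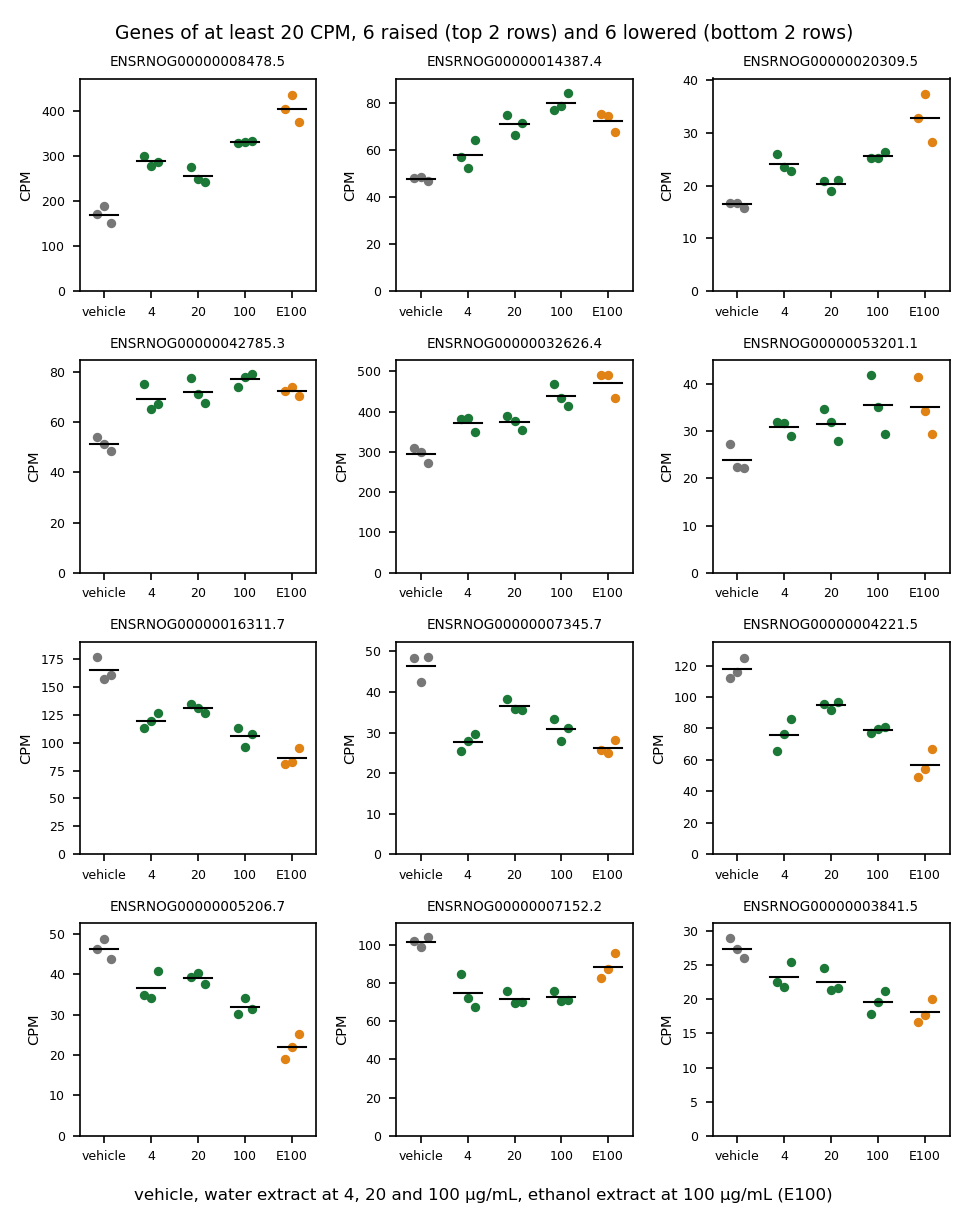
Level in CPM (y axes, from 0) of the 12 most changed genes with at least 20 CPM on average, with 1 point per library and a line at the mean of each group of 3. The upper rows hold the 6 genes that rose at the high dose of water extract and the lower rows the 6 that fell. Absence of overlap between the vehicle and high-dose groups was a condition of the choice.

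Ranked by log2 fold change among called genes without overlap, the 12 genes that rose most were mostly of low abundance: 9 of 12 had under 5 CPM on average, and the smallest count behind a value was 12. Only 1 of the 12, ENSRNOG00000008478.5, reached 100 CPM. The largest of these was that of ENSRNOG00000009528.4, at 1.04, 1.44 and 0.663 CPM with vehicle and 2.74, 2.9 and 2.32 CPM at the high dose. It rose 2.48-fold, and the log2 fold change was 1.31 ± 0.214 (SE; edgeR adjusted p = 0.00112). ENSRNOG00000050586.2, a short gene of 579 bases, had 10.1, 12.3 and 11.9 CPM with vehicle and 20.4, 19.6 and 21.7 CPM at the high dose. Its groups were well apart, and the log2 fold change was 0.84 ± 0.0783 (SE; edgeR adjusted p = 3.17e-06). ENSRNOG00000057092.1 had 4.9, 6.62 and 6.07 CPM with vehicle and 12.3, 10.3 and 8.7 CPM at the high dose, and its log2 fold change was 0.82 ± 0.15 (SE; edgeR adjusted p = 0.00445). With effective length offsets its log2 fold change was 1.31 (edgeR adjusted p = 0.0338), and on the TPM scale it went from 2.02 ± 0.341 to 5.31 ± 2.5 (SD, n = 3), so its size depends on the estimated length. These 3 genes and ENSRNOG00000008478.5 were the 4 of 12 that passed in all 6 leave-one-out fits, and the other 8 lost the call in at least 1. Of the 3, ENSRNOG00000009528.4 (0.0454) passed with 21 libraries, and ENSRNOG00000050586.2 (0.336) and ENSRNOG00000057092.1 (0.176) did not. Part of the counts of ENSRNOG00000057092.1, ENSRNOG00000053079.1 and ENSRNOG00000027433.5 were not whole numbers, which RSEM gives where reads are divided between genes, so their levels depend on that division.

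ENSRNOG00000001792.8 stood at 1.82, 1.48 and 1.12 CPM with vehicle and 2.2, 2.71 and 3.11 CPM at the high dose, with a log2 fold change of 0.85 ± 0.183 (SE; edgeR adjusted p = 0.00972). Without vehicle replicate 3 (0.0626) it did not pass. ENSRNOG00000006280.5 stood at 0.521, 0.763 and 0.714 CPM with vehicle and 1.18, 1.52 and 1.41 CPM at the high dose, with a log2 fold change of 1.05 ± 0.22 (SE; edgeR adjusted p = 0.00806). Its call ended without vehicle replicate 1 (0.0539) and high-dose replicate 2 (0.0509). ENSRNOG00000027433.5 and ENSRNOG00000001928.8 had log2 fold changes of 0.94 and 0.95 (edgeR adjusted p = 0.0216 and 0.0214). The first lost the call without vehicle replicate 1 (0.0874), vehicle replicate 3 (0.101) and high-dose replicate 1 (0.0753), and the second without vehicle replicate 1 (0.0724), vehicle replicate 2 (0.0599), vehicle replicate 3 (0.069) and high-dose replicate 2 (0.147). The remaining 4 genes each passed in a single leave-one-out fit. ENSRNOG00000053079.1 (log2 fold change 1.14) passed without high-dose replicate 3, with edgeR adjusted p of 0.0187 to 0.184 over the 6 fits. ENSRNOG00000037563.3 (1.001) passed without high-dose replicate 1 and had 0.023 to 0.133. ENSRNOG00000017927.4 (0.83) passed without high-dose replicate 1 and had 0.0241 to 0.158. ENSRNOG00000010941.6 (0.82) passed without high-dose replicate 3 and had 0.0378 to 0.215.

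The 12 genes that fell most under the same conditions included ENSRNOG00000016311.7, ENSRNOG00000007345.7 and ENSRNOG00000004221.5, described above, and 7 with under 5 CPM. ENSRNOG00000062002.1 stood at 14.4, 12.5 and 16.4 CPM with vehicle and 8.71, 10.1 and 9.24 CPM at the high dose. Its log2 fold change was -0.62 ± 0.103 (SE; edgeR adjusted p = 0.00135). These 4 genes passed in all 6 leave-one-out fits, and the other 8 lost the call in at least 1. ENSRNOG00000062002.1 did not pass with 21 libraries (0.54). ENSRNOG00000004294.5 stood at 8.98, 8.86 and 11.8 CPM with vehicle and 6.45, 6.54 and 7.12 CPM at the high dose, with a log2 fold change of -0.56 ± 0.12 (SE; edgeR adjusted p = 0.00973). Without vehicle replicate 3 (0.0747) and high-dose replicate 2 (0.0519) it did not pass. The largest of these falls was that of ENSRNOG00000026902.4, at 1.34, 1.61 and 1.43 CPM with vehicle and 0.753, 0.706 and 0.911 CPM at the high dose. Its log2 fold change was -0.89 ± 0.228 (SE; edgeR adjusted p = 0.0278), and it passed only without high-dose replicate 3, with adjusted p of 0.0317 to 0.119 over the 6 fits.

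Of the other 6, ENSRNOG00000049517.1, ENSRNOG00000056012.1, ENSRNOG00000042944.1 and ENSRNOG00000015529.4 each passed in 1 leave-one-out fit. Their log2 fold changes were -0.796, -0.66, -0.65 and -0.55, and the libraries whose omission kept the call were high-dose replicate 3, vehicle replicate 3, high-dose replicate 1 and high-dose replicate 2. Over the 6 fits their edgeR adjusted p were 0.009 to 0.132, 0.0383 to 0.0915, 0.0419 to 0.0914 and 0.0349 to 0.158. ENSRNOG00000032327.4 (-0.55) lost the call without vehicle replicate 2 (0.125), vehicle replicate 3 (0.113), high-dose replicate 1 (0.126) and high-dose replicate 2 (0.104). ENSRNOG00000032715.4, whose counts were partly not whole, had a log2 fold change of -0.65 (edgeR adjusted p = 0.0423) and passed in none of the 6, with adjusted p of 0.0536 to 0.156. The next genes in rank, which are not named, had log2 fold changes of 0.82 and -0.55.

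**Figure D4:**
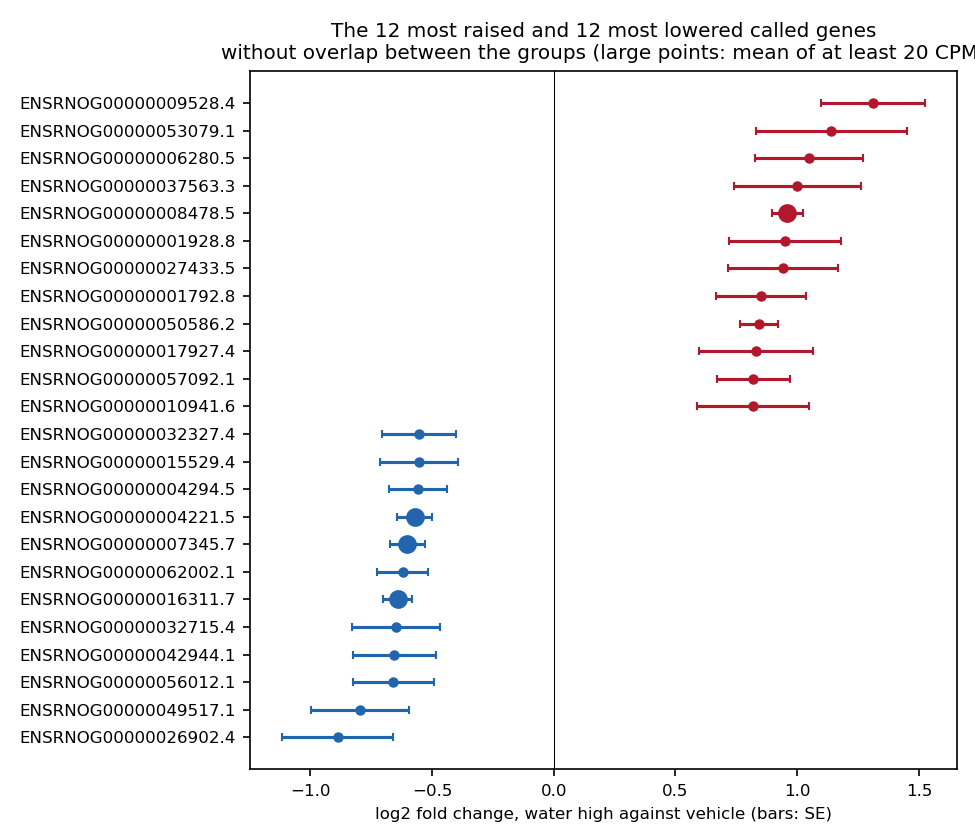
Log2 fold change of high-dose water extract over vehicle (x axis), with 1 gene per line, 1 point per gene and bars of ± SE. Shown are the 12 genes with the largest rise and the 12 with the largest fall, and large points mark a mean of at least 20 CPM. Absence of overlap was a condition for being named, and 9 of the 12 upper and 7 of the 12 lower genes lie under 5 CPM on average.

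The lower doses had comparisons of their own against the same vehicle libraries, so the 3 comparisons are not independent. The low dose called 1467 genes (12%), 5.95% of genes higher and 6.09% lower, and the medium dose 46 (0.377%), 0.23% higher and 0.148% lower. With 646 at the high dose, the number called did not follow the dose in this fit. The low- and medium-dose counts against vehicle were not rerun under any alternative, and the high-dose count ran from 252 to 688 without 1 library. Over the 283 genes that rose at the high dose, the median log2 fold change was 0.27 with 4 µg/mL and 0.19 with 20 µg/mL. Over the 363 that fell it was -0.21 and -0.12. These genes were chosen at the high dose, so their medians at the other doses are set beside it as a description. ENSRNOG00000008478.5 stood at 169.5 ± 18.4, 288 ± 11.1, 254 ± 17.9 and 330.4 ± 2.48 CPM (SD, n = 3) with vehicle, 4, 20 and 100 µg/mL. ENSRNOG00000009528.4 stood at 1.05 ± 0.39, 2.29 ± 0.171, 2.02 ± 0.313 and 2.65 ± 0.299 CPM, and ENSRNOG00000016311.7 at 165 ± 10.4, 119.5 ± 6.68, 131 ± 4.16 and 106 ± 8.61 CPM, in the same order. In these 3 genes the means at 4 and 20 µg/mL lay between those of vehicle and the high dose, and the order of the 4 and 20 µg/mL means was not tested.

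In comparisons of the high dose with the lower doses the vehicle libraries enter the estimate of spread but not the difference itself. High against low dose called 56 genes (0.459%), of which 37 (0.303%) were higher and 19 (0.156%) lower, and 1939 genes had an unadjusted p under 0.05. High against medium dose called 15 genes (0.123%), 11 (0.0902%) higher and 4 (0.0328%) lower, with 1446 genes at an unadjusted p under 0.05. These comparisons share the high-dose libraries with the one against vehicle. Among the 283 genes that rose against vehicle, 15 were above and 3 below the low dose, and 9 were above and 0 below the medium dose. Among the 363 that fell, 3 were below and 2 above the low dose, and 4 were below and 0 above the medium dose. Counts for high against low were 12, 14 and 109 without high-dose replicates 1, 2 and 3 and 7, 247 and 14 without low-dose replicates 1, 2 and 3. Those for high against medium were 9, 5 and 12 without high-dose replicates 1, 2 and 3 and 4, 5 and 7 without medium-dose replicates 1, 2 and 3. Without vehicle replicates 1, 2 and 3 the counts were 40, 41 and 38 for high against low and 12, 10 and 11 for high against medium. With all 21 libraries, edgeR called 0 genes in both, with 450 and 253 at an unadjusted p under 0.05, while DESeq2 called 191 and 38. Fits of only the 6 libraries compared called 5 and 4.

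In 5 genes, all chosen by these tests, the high dose was above vehicle, the low dose and the medium dose. ENSRNOG00000014117.7, the most abundant, stood at 839.7, 852 and 827 CPM with vehicle, 848, 953 and 883 with 4 µg/mL, 828, 943 and 906 with 20 µg/mL and 1037, 1196 and 1154 with 100 µg/mL. The 3 high-dose libraries were above the other 9. High minus low was 0.34 ± 0.0606 (SE; edgeR adjusted p = 0.0204) and high minus medium 0.34 ± 0.0606 (SE; edgeR adjusted p = 0.0217) on the log2 scale. ENSRNOG00000028812.5 stood at 11.4, 13.5 and 10.2 CPM with vehicle, 12, 12.8 and 13.5 with 4 µg/mL, 13.4, 13.6 and 12.9 with 20 µg/mL and 18, 18.4 and 19.2 with 100 µg/mL. Here the vehicle, low-dose and medium-dose means lay within 11.7 to 13.3 CPM, below 18.6 CPM at the high dose. High minus low was 0.54 ± 0.0817 (SE; edgeR adjusted p = 0.00672), which passed in all 6 leave-one-out fits, and high minus medium was 0.48 ± 0.0818 (SE; edgeR adjusted p = 0.018).

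ENSRNOG00000020995.3 stood at 38.1 ± 0.103, 42.6 ± 0.461, 41.2 ± 1.58 and 52.3 ± 1.73 CPM (SD, n = 3) with vehicle and the low, medium and high dose. ENSRNOG00000023546.5 stood at 532 ± 11.5, 588 ± 13.5, 580.3 ± 28.3 and 686 ± 12.5 CPM in the same order, and ENSRNOG00000050586.2 at 11.4 ± 1.17, 16.3 ± 0.497, 14.7 ± 0.87 and 20.6 ± 1.09 CPM. High minus medium was 0.34 ± 0.0502 (SE; edgeR adjusted p = 0.00749) for ENSRNOG00000020995.3. It passed when any 1 of the 6 libraries compared was left out, but not in the fit of those 6 libraries alone, with 21 libraries or with fragment length as a covariate. High minus low of ENSRNOG00000028812.5 did not pass with 21 libraries. Each of the other 8 calls of these 5 genes ended in at least 1 leave-one-out fit, and none of the 8 passed with 21 libraries. Fits of only the 6 libraries compared also ended both calls of ENSRNOG00000014117.7 and ENSRNOG00000023546.5. They ended high against low of ENSRNOG00000020995.3 and ENSRNOG00000050586.2 as well. Of these calls, all but that of ENSRNOG00000020995.3 also ended with limma-voom. High against low ended for ENSRNOG00000020995.3 without low-dose replicate 1 (0.0768), for ENSRNOG00000014117.7 without high-dose replicate 2 (0.0811), low-dose replicate 1 (0.159) and low-dose replicate 3 (0.0711), for ENSRNOG00000023546.5 without high-dose replicate 1 (0.0575), high-dose replicate 2 (0.105), high-dose replicate 3 (0.0509), low-dose replicate 1 (0.159) and low-dose replicate 3 (0.125), and for ENSRNOG00000050586.2 without high-dose replicate 1 (0.0915), high-dose replicate 2 (0.0811), high-dose replicate 3 (0.0823), low-dose replicate 1 (0.184) and low-dose replicate 3 (0.14), each with edgeR's adjusted p. High against medium ended for ENSRNOG00000050586.2 without medium-dose replicate 1 (0.0633) and medium-dose replicate 3 (0.0675), and for ENSRNOG00000014117.7 without high-dose replicate 2 (0.198), high-dose replicate 3 (0.0639), medium-dose replicate 1 (0.218) and medium-dose replicate 3 (0.0802). It ended for ENSRNOG00000028812.5 without high-dose replicate 2 (0.128), high-dose replicate 3 (0.0604), medium-dose replicate 1 (0.106), medium-dose replicate 2 (0.0682) and medium-dose replicate 3 (0.0802), and for ENSRNOG00000023546.5 without high-dose replicate 2 (0.204), high-dose replicate 3 (0.0753), medium-dose replicate 1 (0.218), medium-dose replicate 2 (0.133) and medium-dose replicate 3 (0.0582). Leaving out vehicle replicate 3 also ended both calls of ENSRNOG00000023546.5 and high against low of ENSRNOG00000050586.2, and leaving out vehicle replicate 2 ended high against medium of the first and high against low of the second.

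A further 5 genes differed from vehicle at the high dose but lay further from it at the low dose, again as chosen by these tests. ENSRNOG00000010134.5 stood at 27.6, 25.8 and 23.2 CPM with vehicle, 61.3, 47.6 and 45.6 with 4 µg/mL, 34.4, 34.4 and 36.3 with 20 µg/mL and 36.1, 34.1 and 36.8 with 100 µg/mL. The low-dose libraries were above the other 9, and high minus low was -0.53 ± 0.0911 (SE; edgeR adjusted p = 0.0204). ENSRNOG00000013916.7, which fell at the high dose, stood at 2696, 2551 and 2791 CPM with vehicle, 1576, 1801 and 1910 with 4 µg/mL, 2404, 2212 and 2313 with 20 µg/mL and 2220, 2117 and 2422 with 100 µg/mL. Its lowest mean was at the low dose, and high minus low was 0.35 ± 0.067 (SE; edgeR adjusted p = 0.0204). ENSRNOG00000043098.1 had 4.4 ± 0.546, 10.2 ± 1.6 and 6.62 ± 0.984 CPM (SD, n = 3) with vehicle, the low dose and the high dose. ENSRNOG00000050800.2 had 60.5 ± 2.4, 90.2 ± 2.08 and 73.9 ± 6.28 CPM, and ENSRNOG00000042118.3, of 7884 bases, had 51.5 ± 0.496, 35.8 ± 2.04 and 42.7 ± 0.908 CPM. None of the 5 differences from the low dose passed with 21 libraries, with limma-voom or in the fit of only the 6 libraries compared. None passed in all 6 leave-one-out fits either. The edgeR adjusted p were 0.00734 to 0.098 for ENSRNOG00000010134.5, 0.0264 to 0.173 for ENSRNOG00000013916.7, 0.0206 to 0.365 for ENSRNOG00000043098.1, 0.0257 to 0.173 for ENSRNOG00000050800.2 and 0.0206 to 0.353 for ENSRNOG00000042118.3. For the last 4 the highest value came without low-dose replicate 1, and for ENSRNOG00000010134.5 without high-dose replicate 1. The differences of ENSRNOG00000043098.1 and ENSRNOG00000042118.3 also failed to pass without any 1 of the vehicle replicates. Against vehicle, the calls of ENSRNOG00000013916.7 and ENSRNOG00000043098.1 passed in 2 of 6 leave-one-out fits each: the first ended without vehicle replicate 1 (0.0943), vehicle replicate 3 (0.142), high-dose replicate 1 (0.0719) and high-dose replicate 2 (0.156), and the second without vehicle replicate 1 (0.0991), vehicle replicate 3 (0.0878), high-dose replicate 2 (0.104) and high-dose replicate 3 (0.0572). The call of ENSRNOG00000010134.5 ended without vehicle replicate 3 (0.053).

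**Figure D5:**
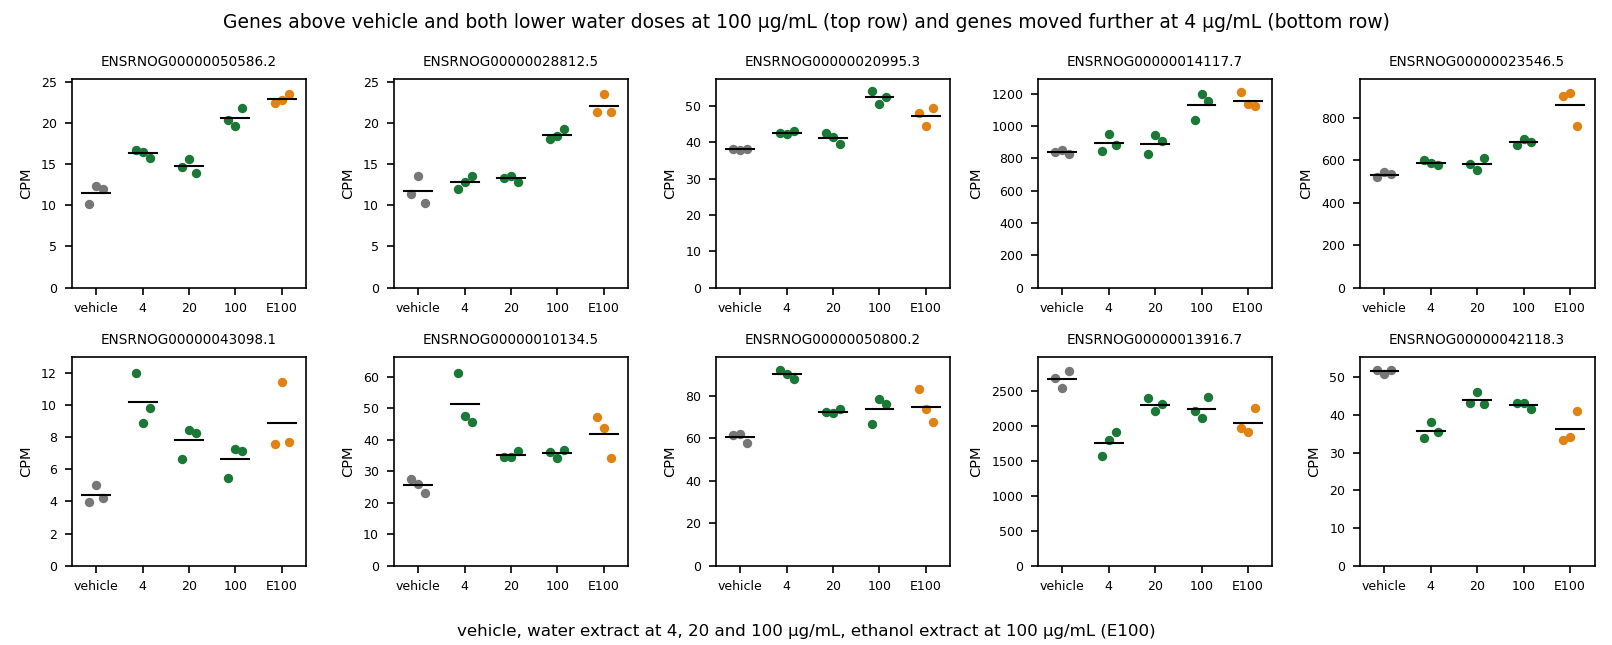
Level in CPM (y axes, from 0) of 10 genes, with 1 point per library and a line at the mean of each group of 3. The groups (x axis) are vehicle, the water extract at 4, 20 and 100 µg/mL and the ethanol extract at 100 µg/mL (E100). Among vehicle and the water extract doses, 5 genes in the top row are highest at 100 µg/mL, and 5 in the bottom row lie furthest from vehicle at 4 µg/mL.

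The ethanol extract at the same dose of 100 µg/mL was compared directly with the water extract in a fit of 15 libraries, chosen after seeing the data. The extracts differed in 1531 genes (12.6%), with 6.39% of genes higher and 6.17% lower with the ethanol extract. The ethanol extract libraries held 17963223 to 23528245 counts, and the gene floor was set without them. No alternative or leave-one-out fit was run for this comparison, so its dependence on single libraries was not tested. It shares the water extract libraries with the comparison against vehicle by which the genes below were chosen, so the comparisons are not independent. Of the 41 genes printed here that were called against vehicle, 12 differed between the extracts. ENSRNOG00000008478.5 stood at 404, 434 and 374 CPM with the ethanol extract against 328, 330.0 and 333 with the water extract, which on the log2 scale is a difference of 0.29 ± 0.066 (SE; edgeR adjusted p = 0.00822). ENSRNOG00000023546.5 stood at 899, 917 and 761 CPM against 673, 698 and 688, a difference of 0.32 ± 0.0573 (SE; edgeR adjusted p = 0.00141). ENSRNOG00000005206.7 stood at 19, 22.1 and 25.2 CPM against 30.1, 34.1 and 31.4, a difference of -0.53 ± 0.0868 (SE; edgeR adjusted p = 0.000916). In these 3 genes the ethanol extract lay further from vehicle in the same direction as the water extract. ENSRNOG00000007152.2 went the other way, at 82.8, 87.3 and 95.5 CPM with the ethanol extract against 75.5, 70.4 and 71.2 with the water extract, a difference of 0.29 ± 0.0677 (SE; edgeR adjusted p = 0.00864). For ENSRNOG00000009528.4 the difference was 0.43 ± 0.184 (SE; edgeR adjusted p = 0.117), and for ENSRNOG00000014387.4 it was -0.15 ± 0.0638 (SE; edgeR adjusted p = 0.131). Neither passed, which does not show that the extracts acted alike on them.

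The largest fold changes in the table belonged to genes that were not called. A log2 change of at least 1 in size was fitted for 20 genes that did not pass and 4 that did, and all 20 had counts that were not whole in the 6 libraries, against 14.4% of all genes tested. A count of 0 in at least 1 library occurred in 16 of the 20. ENSRNOG00000060047.1 had 0, 0 and 0 CPM with vehicle and 29.4, 20.4 and 0.0828 CPM at the high dose (edgeR adjusted p = 0.321), so 1 high-dose library was almost at the vehicle level. ENSRNOG00000024889.5 had 5.38, 5.3 and 0 CPM with vehicle and 0, 0 and 0 CPM at the high dose (edgeR adjusted p = 0.214). ENSRNOG00000048562.2 had 0, 0.763 and 0.153 and 0, 7.13 and 10.3 CPM (edgeR adjusted p = 0.267). In these 3 genes, chosen after their values were seen, at least 1 group held libraries at or near 0 beside libraries at several CPM or more.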

How the data were processed

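Messenger RNA libraries of PC12 cells were made with a directional kit, per the labels' protocols. Samples were grouped by title. The authors deposited RSEM's expected counts for each gene, not normalized, per the file headers. TPM values per gene, which RSEM derives from those counts and effective gene lengths, were deposited in the same tables, per the file headers. The version, per the submitters' processing notes, was RSEM 1.3.3. For the aligner's version, the build, the annotation and the use of strand, the entry is: not given in the sources used here. Overlapping or antisense genes may therefore share counts.

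Expected counts were rounded. Genes were tested with edgeR 4.0.16 in R 4.3.3 (glmQLFit, robust, and glmQLFTest) with TMM, 1 coefficient per group, on 12 libraries (vehicle and the 3 water extract doses), over 12193 genes with at least 1 CPM on average in the 6 libraries compared. Calls needed a Benjamini-Hochberg adjusted p under 0.05. Standard errors are the absolute log2 fold change divided by the square root of F. CPM values used TMM-scaled totals of 21 libraries. The 12 largest changes each way among called genes without overlap were named. Genes in further sets (at least 20 CPM, dose patterns, large changes not called) were chosen after their values were seen. The comparison and the lists were chosen with earlier results of these data known. Gene lists were not applied, because 0 IDs matched a symbol.

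On simulated data (12193 genes) this fit called 58, 86, 92 and 98% of genes altered 1.25, 1.5, 2 and 4-fold. There were 50 altered genes of each size, and 12 of 179 calls were false. Counts were drawn separately for each gene and library, without the length trends of the real libraries. The result is therefore no estimate of the error rate among the real calls. Alternatives were fits of 6, 18 and 21 libraries, limma-voom from limma 3.58.1, the Wald test of DESeq2 1.42.0 and its size factors, effective length offsets, 3 other filters, the replicate block and leaving out each library. Added after seeing the data were fragment length as a covariate, removal of the length trend, the ethanol comparison and leaving out each low- and medium-dose library in the dose comparisons. Figures were drawn with matplotlib 3.10.9.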

Additional observations from a re-analysis of the deposited data

Results flagged for a closer look

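Printed genes whose response differed between doses of the water extract, or between the extracts, are given here. Each difference was itself tested with edgeR's quasi-likelihood test, over the 12193 genes tested in that comparison. Values are log2 differences.

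High against low dose called 56 (0.459%) of all genes tested. Of the printed genes listed next, all but ENSRNOG00000014387.4 and ENSRNOG00000050586.2 were printed because that test called them. Their number is therefore no finding. In 11 genes the high dose differed from the low dose. It was higher by 0.54 in ENSRNOG00000028812.5 (adjusted p = 0.00672), 0.47 in ENSRNOG00000014387.4 (adjusted p = 0.00471), 0.34 in ENSRNOG00000014117.7, 0.33 in ENSRNOG00000050586.2, 0.296 in ENSRNOG00000020995.3 and 0.22 in ENSRNOG00000023546.5, all of which rose against vehicle. In ENSRNOG00000013916.7 and ENSRNOG00000042118.3, which fell against vehicle, the difference was 0.355 and 0.25. It was -0.61 in ENSRNOG00000043098.1, -0.53 in ENSRNOG00000010134.5 and -0.28 in ENSRNOG00000050800.2, which rose against vehicle. The difference passed in all 6 leave-one-out fits for ENSRNOG00000014387.4 and ENSRNOG00000028812.5 among these 11, and neither passed with 21 libraries.

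High against medium dose called 15 (0.123%) of all genes tested. ENSRNOG00000014117.7, ENSRNOG00000020995.3, ENSRNOG00000023546.5 and ENSRNOG00000028812.5 were printed because this test, among others, called them, so their passing is no finding. In 8 genes the high dose differed from the medium dose. The difference was 0.48 in both ENSRNOG00000050586.2 (adjusted p = 0.0116) and ENSRNOG00000028812.5, 0.38 in ENSRNOG00000008478.5, 0.34 in ENSRNOG00000020995.3, ENSRNOG00000014117.7 and ENSRNOG00000020309.5, and 0.24 in ENSRNOG00000023546.5. It was -0.31 in ENSRNOG00000016311.7. Leaving out any 1 of the 6 libraries compared did not end the call of ENSRNOG00000020995.3, but it did not pass in the fit of those 6 libraries alone, with 21 libraries or with fragment length as a covariate. The calls of the other 7 ended in at least 1 of those leave-one-out fits. For ENSRNOG00000020309.5 it held in 0 of 6, with edgeR adjusted p of 0.0626 to 0.154. For ENSRNOG00000008478.5 it ended without high-dose replicate 1 (0.0606), high-dose replicate 2 (0.128), high-dose replicate 3 (0.0604), medium-dose replicate 2 (0.0689) and medium-dose replicate 3 (0.0922), and for ENSRNOG00000016311.7 without high-dose replicate 2 (0.244), high-dose replicate 3 (0.0674), medium-dose replicate 1 (0.285), medium-dose replicate 2 (0.117) and medium-dose replicate 3 (0.0802).

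For the comparison of the extracts no alternative or leave-one-out fit was run. It called 1531 (12.6%) of all genes tested. The printed genes were chosen in comparisons that share its high-dose water extract libraries. Differences towards vehicle can follow from that choice and were not tested apart from it. In 12 genes the ethanol extract at 100 µg/mL differed from the water extract. It was higher by 0.78 in ENSRNOG00000037563.3, 0.35 in ENSRNOG00000020309.5, 0.32 in ENSRNOG00000023546.5, 0.29 in ENSRNOG00000008478.5 and 0.25 in ENSRNOG00000028812.5, which rose with the water extract. Differences of 0.72 in ENSRNOG00000049517.1, 0.63 in ENSRNOG00000032715.4 and 0.29 in ENSRNOG00000007152.2 were towards vehicle, since these genes fell with the water extract. It was lower by a log2 difference of -0.53 in ENSRNOG00000005206.7 (adjusted p = 0.000916), -0.47 in ENSRNOG00000004221.5, -0.29 in ENSRNOG00000016311.7 and -0.23 in ENSRNOG00000042118.3, which fell with the water extract.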

How the results depend on the processing

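Against the 646 genes called with 12 libraries, edgeR called 428 with the 6 libraries compared and 9 with all 21, and leaving out 1 vehicle or high-dose library gave 252 to 688. The share of higher calls was 43.8% of the 646 and 52.9% with the length trend of each library removed. High against low dose (56 genes) gave 5 with 6 libraries, 0 with 21 libraries (450 at an unadjusted p under 0.05), 191 with DESeq2, 9 with limma-voom, 136 with no filter and 7 to 247 without 1 library. High against medium dose (15 genes) gave 4 with 6 libraries, 0 with 21 (253 at an unadjusted p under 0.05), 8 with 18, 38 with DESeq2, 7 with limma-voom, 32 with no filter, 3 with fragment length as a covariate and 4 to 12 without 1 library. The causes were not tested. The 18 libraries leave out 3 ethanol extract libraries. With the replicate block, 836, 78 and 22 genes were called, and 624 of the 646 were among the 836. Deviations of vehicle and high-dose libraries with the same number correlated at 0.162, -0.0221 and 0.0963. Vehicle replicates 2 and 3 did not correlate best with their own number: replicate 3 correlated at 0.106 with high-dose replicate 2. The labels do not say that a number is shared.

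For the 41 printed genes that were called against vehicle, 589 of 749 pairs of gene and alternative kept direction and call. Of the others, 160 lost the call and 0 reversed. Pairs in which the alternative gave the gene no adjusted p are not among the 749. Under every alternative that gave them an adjusted p, 7 genes passed, and 21 passed under all of these but possibly the 21-library fit. Among the 7, ENSRNOG00000009528.4 had an adjusted p in 17 alternatives, and DESeq2 and the filter of 5 CPM gave it none. Depth limits genes near 1 CPM, where the smallest counts behind the largest rises and falls were 12 and 14.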
